A study of Mus musculus with 18 samples.

Results

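The 33 mouse genes that encode subunits of the Mediator complex were followed in the retina from birth to adulthood and with and without polo-like kinase 3. Members were all genes whose single symbol in the array annotation is Med followed by a number, with or without a final letter, together with Ccnc, Cdk8 and Cdk19. They are 33 of the 18193 genes with a single symbol on the array, and they hold 72 of its 45037 probe sets that are not controls. Of these genes, 14 have 1 probe set and 19 have more, up to 7 for Med1. A probe set shared by Usp49 and Med20 carries more than 1 symbol and was left out.

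Retinal RNA was measured on 18 Affymetrix arrays, 3 for each of 6 groups. The groups were WT and Plk3-KO mice at P0 (the day of birth), at P7 and in the adult, all with the strain label C57Bl/6. The Plk3-KO mice lack Plk3 through a germline deletion of its first exons, had been crossed to C57Bl/6 mice and were compared with WT littermates. The Plk3-KO therefore removes the kinase in every cell of the animal, and the retina was sampled whole. Values are MAS5 signals as deposited, in log2 units, so that a difference of 1 is a doubling. The probe set of Plk3 targets the 3′ end of the mRNA, outside the deletion, so it does not show the loss of Plk3. The paper reports that this end was higher in Plk3-KO retinas, on these arrays and by qPCR in adults. Its means were 6.87 in WT and 7.90 in Plk3-KO retinas at P0, 6.10 and 7.30 at P7, and 5.20 and 7.70 in the adult.

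Mediator is a large protein complex that passes signals from transcription factors bound at enhancers to RNA polymerase II at the promoter. Its head and middle modules contact the polymerase, its tail binds many activators, and Med14 is the backbone that joins them. A separable kinase module, made of Cdk8 or Cdk19, cyclin C (Ccnc), Med12 or Med12l and Med13 or Med13l, binds to the rest reversibly and can keep the polymerase away. Between P0 and the adult, the mouse retina loses its dividing progenitors and its rods mature.

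Every member gene had a probe set with a mean above 7, the minimum used for testing, in all 6 groups. Taking for each gene the probe set with the highest mean over the 18 arrays, these means ran from 8.21 for Med18 to 12.1 for Med28, with a median of 10. Next to Med28 came Med30 and Cdk19, each at 11.57. Probes differ in how strongly they bind, so this order is an order of signals and not of transcripts. Of the 72 probe sets, 46 were above 7 in all 6 groups, 8 in some of them and 18, which belong to 11 genes, in none. The 54 that passed in any group were tested by age, and 53 at P0, 49 at P7 and 49 in the adult were tested by genotype.

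As a check of the tissue label, the 9 retina markers found by symbol, out of 12 on the list, were all above 7 at each age. Their mean per array was 11.3 to 11.7 at P0, 12.7 to 12.9 at P7 and 13.3 to 13.6 in the adult. The progenitor and cell cycle list, with 7 of 8 genes found, was at 12.1 to 12.4 at P0, 8.3 to 9.0 at P7 and 5.2 to 6.8 in the adult. Lens genes, all 6 found, were uneven, at 4.8 to 13.4 per array at P0, 4.3 to 5.9 at P7, and 8.8 to 11 in WT and 6.2 to 9.3 in Plk3-KO adults, and the 6 pigment epithelium genes were at 6.3 to 7.2 at P0 and 8.9 to 10.3 in the adult. The part of these cells in the results below was not tested. In whole retinas, fewer cells of a type and less RNA per cell cannot be told apart. Adult Plk3-KO array 3 and adult WT array 3 had medians over all probe sets of 7.2 and 7.0 against 6.3 to 6.5 on the other adult arrays. At P7 the median was 6.4 on array 2 of the Plk3-KO and array 3 of the WT retinas, against 6.8 to 6.9 on the others. Results that rest on these 4 arrays are given without them too.

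Between P0 and the adult, 27 of the 54 Mediator probe sets passed the test, with 8 higher in 7 genes and 19 lower in 13 genes. By the probe set with the highest mean of each gene, the called genes with the largest differences were Med16, Cdk19, Ccnc and Med13l, which rose, and Med8, Med1, Med25 and Med23, which fell. Each difference is the mean of the WT and the Plk3-KO difference, 6 arrays against 6, and was tested with limma at an adjusted p under 0.05. The shares called were 14.8% higher and 35.2% lower, against 26.1% and 36.2% of all 25085 probe sets tested. Of the 19 lower calls 14 were above 7 at both ages, and the other 5, on dim probe sets of Med12l, Med13, Med13l, Med15 and Med29, had adult means under 7, and all but that of Med15 were above 7 at P0 alone. Likewise the dim Med14 probe set, 1 of the 8 higher, was under 7 at P0. Among the 46 members above 7 in all 6 groups, 7 were higher (15.2%) and 14 lower (30.4%), against 27.5% and 31.6% of the 16860 such probe sets in all. All 27 had the same direction in WT and in Plk3-KO retinas, which their choice by the mean of both genotypes made likely. Of the 20 members that were called in the WT arrays alone, 20 had the same direction in the separate Plk3-KO arrays and 10 were called there too. The respective shares for all probe sets called in WT were 99.6% and 76.6%.

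The lower side of this count moved with the scaling. The median difference from P0 to the adult was −0.30 over the Mediator probe sets and −0.22 over all probe sets tested. With each array centred on its own median, 12 members were higher and 13 lower, against 7819 and 6092 of all probe sets, and the median became 0.02 for members and 0.10 for all. Under quantile normalization 10 members were higher and 18 lower, against 7368 and 8399 of all probe sets. Among adult arrays the median over all probe sets ran from 6.3 to 7.2 and that over members from 9.55 to 9.9. Centring thus moves members by more than their own median varies. The 8 genes named above were called with the same sign under centring and under quantile normalization, so their direction does not turn on the scaling.

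**Figure D1:**
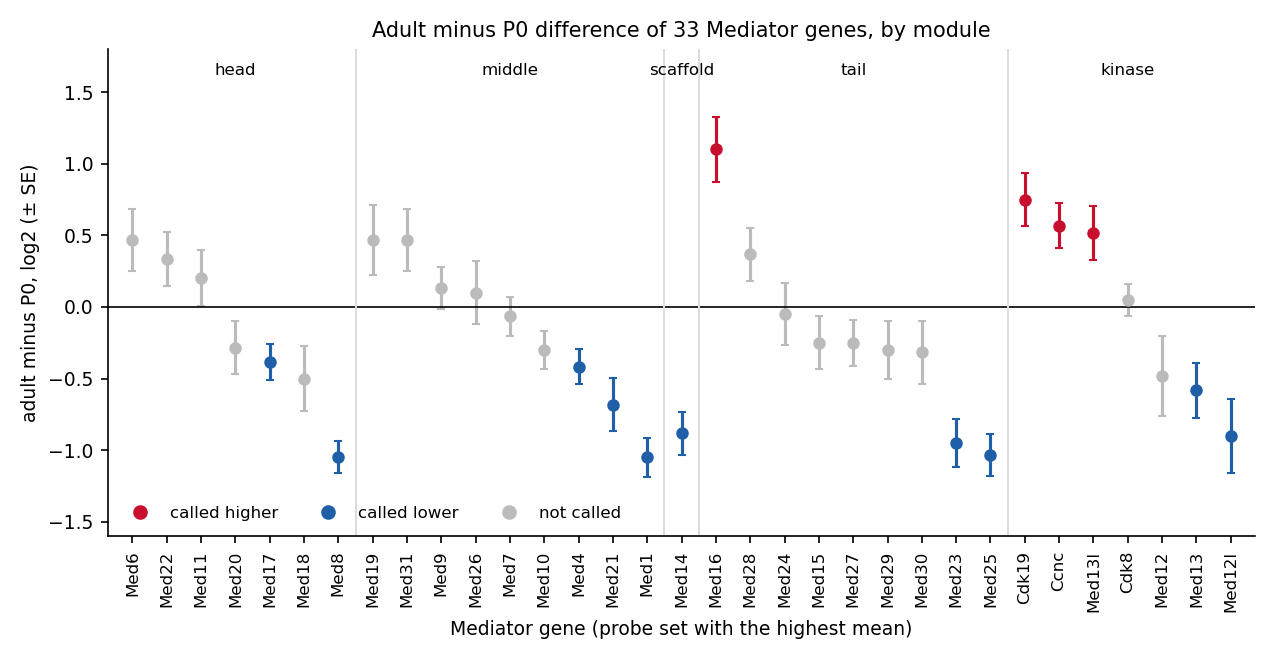
Adult minus P0 difference on the log2 scale for the 33 Mediator genes, each by its probe set with the highest mean, grouped by module; points are means of the WT and Plk3-KO differences and bars are standard errors from limma. Med16 at 1.10 stands highest and Med8 and Med1, both at −1.05, stand lowest, and 4 genes were called higher and 10 lower.

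Among the head subunits, which lie against the polymerase, Med8 fell at every step on its brighter probe set. Its 3 WT arrays read 11.1, 11.3 and 11.3 at P0, 11, 10.8 and 10.8 at P7 and 10.3, 10.2 and 10 in the adult, and its Plk3-KO arrays read 11.4, 11.1 and 11.6, then 11, 10.7 and 10.8, then 10.4, 10.2 and 10.4. The 3 ages did not overlap in either genotype or in both together. The difference was −0.45 from P0 to P7 (SE 0.11, limma adjusted p = 0.00474), −0.60 from P7 to the adult (adjusted p = 0.000666) and −1.05 in all (adjusted p = 6.74e-07). With centred arrays the SE of each of these differences rose to 0.22. The first step was then −0.22 and the second −0.52, and neither passed, while the whole fall of −0.73 did (adjusted p = 0.00797). Med17, the central head subunit, fell by 0.38 from P0 to the adult (adjusted p = 0.0149). Med18 ran from 8.1 to 9.0 at P0 and from 7.4 to 8.3 at P7, and its fall by 0.67 passed (adjusted p = 0.0307) but was lost under quantile normalization (−0.50, adjusted p = 0.0728), with centred arrays (−0.43) and without the 4 arrays (−0.48). In the adult its median was 8.2, and neither the difference of 0.17 from P7 (adjusted p = 0.591) nor that of −0.50 from P0 (adjusted p = 0.0651) passed. Med6, Med11, Med20 and Med22 were called in no age comparison, and of the 10 tested head probe sets 3 fell from P0 to P7 (30%, against 18% of all probe sets), 1 from P7 to the adult (10% against 19.2%) and 2 from P0 to the adult (20% against 36.2%).

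In the middle module, Med1, the subunit through which nuclear receptors reach Mediator, had the largest differences of the module from P0 to the adult. On 1448708_at it lay between 10.6 and 10.9 at P0 (median 10.8), between 9.8 and 10.6 at P7 (median 10.3) and between 9.3 and 10 in the adult (median 9.75). All 6 adult arrays were below all 6 at P0. The fall was 0.48 to P7 (adjusted p = 0.011) and 1.05 to the adult (SE 0.14, adjusted p = 6.46e-06), and at the first step it was lost with centred arrays (−0.25, adjusted p = 0.318). A second probe set of Med1, 1421907_at, fell by 1.12 from P0 to the adult and 1447450_at by 1.27, whereas 1421906_at, with a difference of −0.72, did not pass.

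Other middle subunits moved in both directions. Med21 was between 9.5 and 10.4 at P7 and between 8.9 and 9.9 in the adult, a fall of 0.62 (adjusted p = 0.0167) that left the ages overlapping and did not pass with centred arrays (−0.53, adjusted p = 0.0861). Med4 fell by 0.35 from P0 to P7 (adjusted p = 0.032), a call lost with centred arrays, and by 0.42 to the adult (adjusted p = 0.00684). Med31, one of the smallest subunits, rose from a median of 10.75 at P0 to 11.2 at P7 (0.58, adjusted p = 0.0455). Without the 4 arrays this was 0.33 (adjusted p = 0.0535), since 2 of them, P7 WT array 3 at 11.9 and P7 Plk3-KO array 2 at 11.8, were its highest at P7. Med9 rose on its dimmer probe set 1419377_at, from 7.4 to 8.2 at P7 to 8.3 to 9.4 in the adult (1.03, adjusted p = 0.0013), with no overlap, while its main probe set 1449448_at differed by 0.33 (adjusted p = 0.0852). Med19 likewise passed from P0 to the adult on 1427332_at alone (0.62, adjusted p = 0.0117), while its main probe set differed by 0.47 (adjusted p = 0.107). Med7, Med10 and Med26 were called in no age comparison.

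In the tail, the part that meets activators, Med16 rose while Med23 and Med25 fell. Med16 read 9.9, 9.8 and 10.4 in WT and 10.2, 9.9 and 10.8 in Plk3-KO retinas at P0, 10.8, 10.8 and 10.6 and 10.8, 10.7 and 10.9 at P7, and 11.7, 11.5 and 10.9 and 11.7, 11.5 and 10.3 in the adult. Adult Plk3-KO array 3, at 10.3, was the only adult array below the highest P0 array. The rise was 0.60 to P7 (SE 0.23, adjusted p = 0.0489) and 1.10 to the adult (adjusted p = 0.00057), and without the 4 arrays the latter was 1.43. The first step passed in 5 of the 18 fits that leave out 1 array and is thus barely past the threshold.

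Med25, whose activator-binding domain is a target of viral and cellular activators, was between 9.6 and 9.9 at P0 (median 9.75), 9.1 and 9.5 at P7 (median 9.35) and 8.1 and 8.9 in the adult (median 8.85) on 1453197_at. No array of one age overlapped another. The fall was 1.03 from P0 to the adult (SE 0.15, adjusted p = 1.58e-05), and its second probe set, 1448637_at, fell by 0.50 (adjusted p = 0.013). Med23, a subunit that couples growth factor signalling to transcription, went from 10.2 to 10.6 at P0 to 9.1 to 9.8 in the adult, again without overlap (−0.95, adjusted p = 0.000127). Med27 moved both ways. It rose by 0.47 from P0 to P7 (adjusted p = 0.0316) and fell by 0.72 from P7 to the adult (adjusted p = 0.00262), with medians of 9.25, 9.8 and 9.05, and the net difference of −0.25 did not pass (adjusted p = 0.181). With centred arrays only its rise passed (0.70, adjusted p = 0.0445, fall −0.63, adjusted p = 0.0698). In the 18 fits that leave out 1 array, however, the rise passed in 9 and the fall in 18, so the rise is not firm. The main probe sets of Med15, Med24, Med28, Med29 and Med30 were called in no age comparison, although dim second probe sets of Med15 (1441617_at, −1.37) and Med29 (1436415_at, −1.35) were called lower in the adult than at P0. Their adult means of 6.75 and 5.73 were under the minimum of 7, and that of Med29 was above it at P0 alone, so these sizes are not firm.

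In the kinase module, 4 of 15 tested probe sets were higher (26.7%) and 6 lower (40%) in the adult than at P0, shares near the 26.1% and 36.2% of all probe sets. Of the 6 lower ones, 3 were above 7 at P0 alone. The kinase Cdk19 rose on both of its probe sets. On 1455031_at its arrays lay between 11 and 11.4 at P0 (median 11.1), 11.2 and 12.4 at P7 (median 11.4) and 11.5 and 12.3 in the adult (median 11.85), with all adult arrays above all at P0 (0.75, SE 0.18, adjusted p = 0.00223). On 1434997_at it stayed between 8.3 and 8.8 at P0 and 8.4 and 8.8 at P7 and reached 9.4 to 10 in the adult, a rise by 1.18 from P7 (adjusted p = 5.83e-06) with no overlap. The P0 to P7 difference of 1455031_at, 0.50 (adjusted p = 0.0436), was 0.20 without the 4 arrays (adjusted p = 0.0889), and that of 1434997_at was 0.02. Its paralogue Cdk8 lay between 10.8 and 11.4 on all 18 arrays and differed by 0.20 (adjusted p = 0.173), −0.15 (adjusted p = 0.302) and 0.05 (adjusted p = 0.703) from P0 to P7, P7 to the adult and P0 to the adult.

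Ccnc, the cyclin partner of both kinases, was between 9.1 and 9.8 at P0, 9.2 and 9.9 at P7 and 9.9 and 10.4 in the adult on 1428570_at. It rose by 0.53 from P7 (adjusted p = 0.0154, and 0.0821 with centred arrays) and by 0.57 from P0 (adjusted p = 0.00539), with no overlap between P0 and the adult. Med13 and Med13l link the kinase to the complex. Of 4 tested probe sets, Med13 fell from P0 to the adult by 0.58 on its main one, 1453160_at (adjusted p = 0.0141), and by 0.95 on 1438725_at. The dim 1444068_at was called lower too, by 2.92. It was above 7 at P0 alone and passed the filter through that age, so its fall is a description and its size is not firm. Med13l rose by 0.52 on 1434603_at (SE 0.19, adjusted p = 0.0279), from 11 to 11.4 at P0 to 11.2 to 12.2 in the adult. Med12, which activates the kinase, differed by −0.48 (adjusted p = 0.138). Its paralogue Med12l was between 10 and 10.8 at P7 and between 8.6 and 10.1 in the adult and fell by 1.08 (SE 0.26, adjusted p = 0.0042), and by 1.60 without the 4 arrays, of which adult WT array 3 at 10 and adult Plk3-KO array 3 at 10.1 were its highest adult values.

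**Figure D2:**
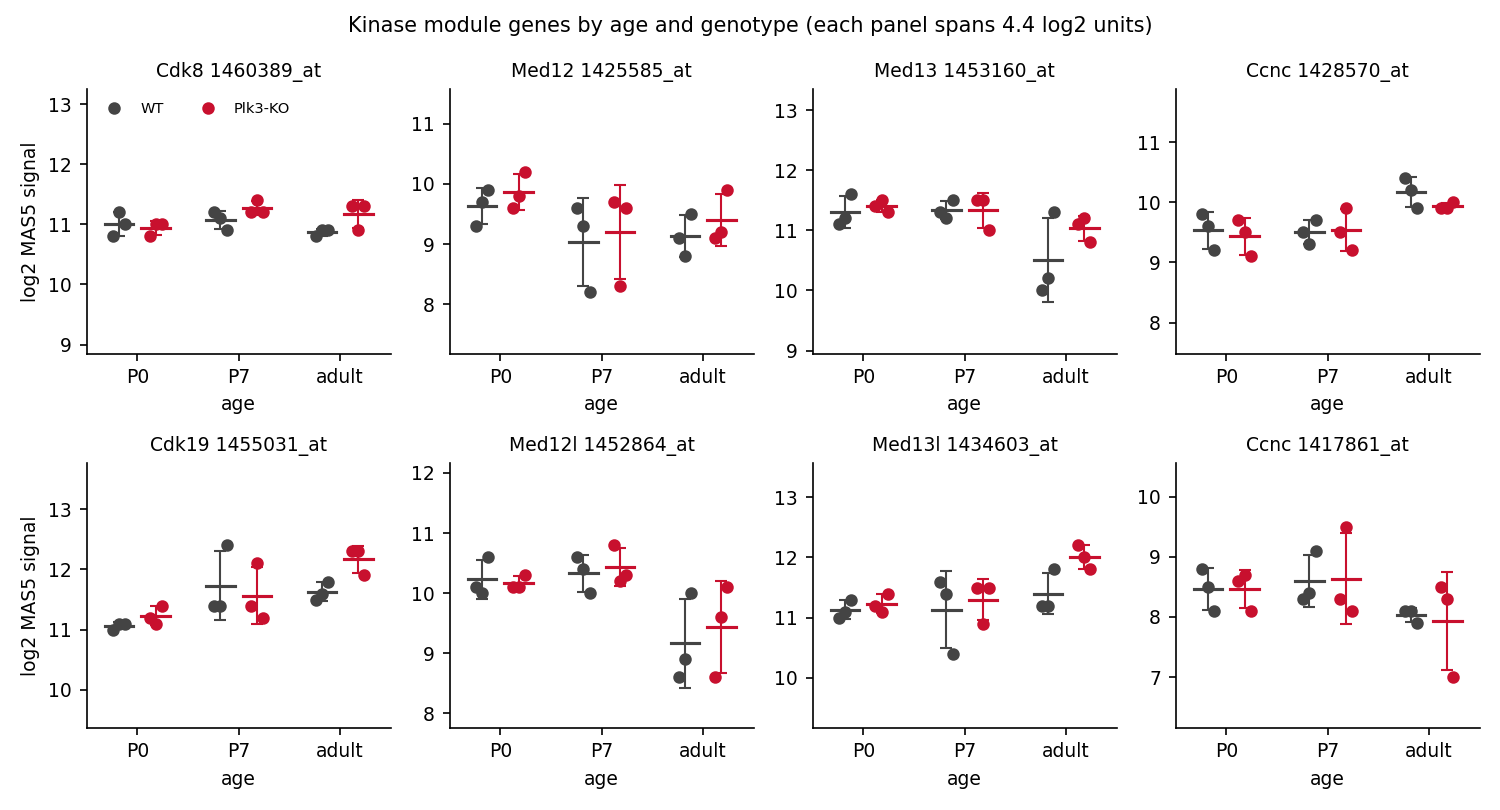
Log2 MAS5 signal of the kinase module by age, 1 probe set a panel (2 for Ccnc), with WT arrays in grey and Plk3-KO arrays in red; each point is an array, lines are means of 3 arrays and bars are SD. Cdk19 lies higher in the adult than at P0 on all 6 arrays while Cdk8 stays between 10.8 and 11.4, and the Med12l means are lower in the adult than at P7.

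The paralogues were compared directly, by the difference of the pair on each array, which array-wide shifts cannot move. With 9 comparisons in the family, an exact two-sided permutation of age within genotype can go no lower than p = 0.005, or 0.009 after Benjamini-Hochberg adjustment. From P0 to the adult Cdk19 gained 0.70 on Cdk8 (exact p = 0.005, adjusted 0.009), whereas the gains of 0.30 to P7 (exact p = 0.33) and 0.40 after it (exact p = 0.19) did not pass. Med13l gained 1.10 on Med13, with 0.05 up to P7 (exact p = 0.915) and 1.05 after it (exact p = 0.005, adjusted 0.009). Med12l gained 0.82 on Med12 up to P7 and lost 1.23 afterwards (exact p = 0.005 and adjusted 0.009 for each), which left −0.42 over the whole span (exact p = 0.1). Without the 4 arrays the 3 differences from P0 to the adult were 0.77, 1.19 and −0.57. The separate steps moved more. For Cdk19 over Cdk8 the steps became −0.01 up to P7 and 0.78 after it, for Med13l over Med13 0.42 and 0.78, and for Med12l over Med12 0.53 and −1.10, so when Cdk19 and Med13l gained depends on these arrays. These pairs were chosen after the values had been seen.

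From P0 to P7, 4 member probe sets were higher (7.41% of 54 against 17.5% of all) and 8 lower (14.8% against 18%). The higher ones were of Cdk19, Med16, Med27 and Med31, and the lower ones were of Med1, with 2 probe sets, Med4, Med8, Med14, Med17, Med18 and Med25. With centred arrays 3 members were higher and 0 lower, while 4873 probe sets in all were higher and 2342 lower. All 8 lower calls were lost there, as were those of Med16 (0.83, adjusted p = 0.0723) and Cdk19 (0.73, adjusted p = 0.0779). Under quantile normalization the counts stayed near those of the deposited values, with 5 members higher and 8 lower, against 5369 and 4147 of all probe sets. At an unadjusted p under 0.05 in limma the deposited values gave 7 higher and 12 lower of 54 members, against 5303 and 5860 of all 25085 probe sets. The number of calls is small and moves with single arrays, between 0 and 5 higher and 3 and 10 lower when any 1 array is left out. None was higher without array 1 or 2 of the P0 Plk3-KO or array 2 of the P0 WT retinas. There were 1 or 2 without any P7 Plk3-KO array, P7 WT array 3, P0 WT array 1 or 3, or array 2 of either adult genotype. Lower calls numbered 3 without P7 Plk3-KO array 2, P0 Plk3-KO array 3 or P0 WT array 2, 4 without P0 WT array 3 and 5 without P7 WT array 3. The shares over all probe sets in the runs that leave out 1 array are not given. Their counts show only how the calls moved.

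From P7 to the adult, 4 member probe sets were higher (7.41% against 16.1%) and 11 lower (20.4% against 19.2%). The higher ones were of Ccnc, Cdk19, Med9 and Med14. The lower ones belonged to Med1, Med8, Med12l, Med13, Med21, Med23, Med25 and Med27. With centred arrays 4 were higher and 2 lower, against 3407 and 3388 of all probe sets. Under quantile normalization 5 were higher and 12 lower, against 4159 and 5155 of all. Without the 4 arrays 10 were higher and 20 lower, and without adult WT array 3 alone 8 were higher and 17 lower. Without adult Plk3-KO array 3 alone 8 were higher. The shares over all probe sets in these runs without arrays are not given, so these counts show only how the calls moved with the arrays. In 13 of the 54 probe sets no adult array overlapped a P0 array, 4 of them higher (16.8% of all probe sets) and 9 lower (20.9% of all).

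Probe sets of one gene can report different stretches of its transcripts. Of the 16 genes with 2 or more tested probe sets, all probe sets had the same sign in 11 genes from P0 to P7, in 9 from P7 to the adult and in 12 from P0 to the adult. In Med14 and Med13l probe sets were called in opposite directions from P0 to the adult, in each gene with 1 of the 2 called probe sets under 7 at one of these ages, so that the opposite calls rest on values near or under the minimum. On the main Med14 probe set, 1437632_at, arrays went from 9.9 to 10.4 at P0 over 9.5 to 9.9 at P7 to 8.8 to 9.7 in the adult, a fall by 0.88 (SE 0.15, adjusted p = 8.98e-05). On 1456785_at they went from 6.3 to 7.2 over 6.4 to 7.9 to 8.1 to 9.2, a rise by 1.77 (SE 0.27, adjusted p = 3.4e-05). Its mean was 6.83 at P0, under the minimum, but 7.43 at P7 and 8.60 in the adult, and the step between these 2 ages was 1.17 (adjusted p = 0.00329), beside −0.37 on the main one (adjusted p = 0.0641). In both probe sets, no adult array overlapped one at P0. The rise on 1456785_at over the other was 1.12 to P7, 1.53 after P7 and 2.65 in all, each with an exact p = 0.005, adjusted to 0.009 over the 9 comparisons of this family. The family holds Med14, Ccnc and Med8 and was chosen after the values had been seen. The other 3 Med14 probe sets were under 7 in every group.

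Of the 3 tested Med13l probe sets, 1434603_at rose by 0.52, 1434602_at differed by 0.42 (adjusted p = 0.0747) and 1453906_at fell by 1.43 (adjusted p = 0.00327). On 1453906_at the arrays went from 7.3 to 8.1 at P0 to 5.3 to 7.2 in the adult, where its mean lies under 7. In Ccnc, 1417861_at differed by −0.48 from P0 to the adult (adjusted p = 0.151) against the rise by 0.57 on 1428570_at. The difference between the 2 was 1.05 (exact p = 0.005, adjusted 0.009), of which −0.12 came before P7 (exact p = 0.535). Without the 4 arrays it was 0.83. Which transcripts each probe set detects was not tested.

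**Figure D3:**
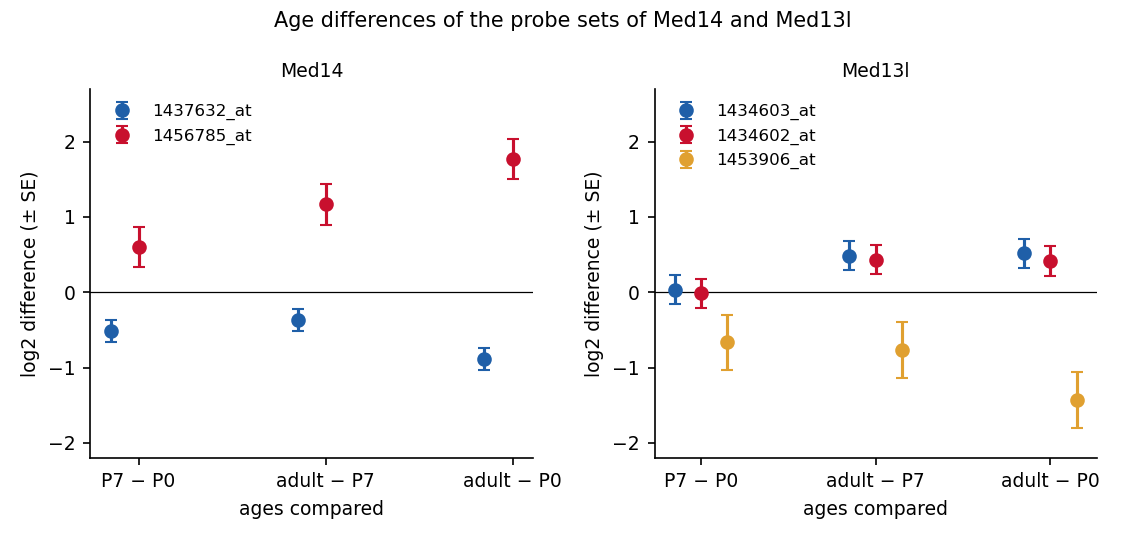
Age differences on the log2 scale, means of WT and Plk3-KO with standard errors from limma, for the tested probe sets of Med14 and Med13l. The 2 Med14 probe sets lie on opposite sides of 0 in each comparison, and in Med13l only 1453906_at lies well below 0.

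To show the regulatory sequence at the starts of members that moved in opposite directions, promoters of 2 genes that rose (Ccnc, Med16) and 2 that fell (Med1, Med25) are given, read 5′ to 3′ from 250 bases before to 50 after the start that RefSeq gives. Capitals mark exact matches, on either strand, to any of 6 motifs. The TATA box was searched as TATAAA and the box named after CCAAT by those letters. The GC box was searched as GGGCGG, and the motif of ETS factors as CCGGAAG. Those of YY1 and NRF1 were searched as AAGATGGCG and GCGCATGC.
Ccnc (GRCm38.p6, chr4:21727451-21727750, plus strand): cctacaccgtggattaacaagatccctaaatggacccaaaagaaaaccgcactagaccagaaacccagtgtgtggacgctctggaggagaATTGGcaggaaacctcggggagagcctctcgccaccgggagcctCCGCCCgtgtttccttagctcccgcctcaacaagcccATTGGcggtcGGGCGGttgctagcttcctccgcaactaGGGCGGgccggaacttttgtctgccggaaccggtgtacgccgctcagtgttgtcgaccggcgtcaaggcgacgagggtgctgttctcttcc
Med16 (GRCm38.p6, chr10:79908889-79909188, minus strand): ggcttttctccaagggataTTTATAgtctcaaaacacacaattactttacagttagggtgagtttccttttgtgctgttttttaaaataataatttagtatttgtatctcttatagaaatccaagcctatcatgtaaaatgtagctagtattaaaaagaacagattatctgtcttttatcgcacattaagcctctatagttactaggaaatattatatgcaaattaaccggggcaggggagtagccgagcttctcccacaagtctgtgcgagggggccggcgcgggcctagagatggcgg
Med1 (GRCm38.p6, chr11:98192857-98193156, minus strand): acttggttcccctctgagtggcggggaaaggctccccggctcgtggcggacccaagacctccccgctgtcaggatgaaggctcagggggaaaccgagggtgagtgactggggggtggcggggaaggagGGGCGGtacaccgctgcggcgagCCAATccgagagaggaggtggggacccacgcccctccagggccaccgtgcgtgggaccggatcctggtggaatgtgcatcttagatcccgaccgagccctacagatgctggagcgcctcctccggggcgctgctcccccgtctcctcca
Med25 (GRCm38.p6, chr7:44892375-44892674, minus strand): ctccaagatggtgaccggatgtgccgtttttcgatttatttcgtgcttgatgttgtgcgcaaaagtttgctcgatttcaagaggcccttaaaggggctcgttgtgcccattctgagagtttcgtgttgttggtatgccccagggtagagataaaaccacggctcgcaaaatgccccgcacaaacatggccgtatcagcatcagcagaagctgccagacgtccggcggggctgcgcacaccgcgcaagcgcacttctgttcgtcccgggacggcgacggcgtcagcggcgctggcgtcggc
Ccnc held 3 GC boxes and 2 CCAAT boxes, Med1 a GC box and a CCAAT box, Med16 a TATA box far from its start, and Med25 none of these letters. RefSeq promoters were matched for 28 of the 33 genes, 32 promoters in all. A GC box stood in 62.5% of them against 35.7% of all 32851 promoters in the table, the ETS motif in 28.1% against 8.86%, the NRF1 motif in 12.5% against 2.71%, the CCAAT box in 37.5% against 37.4%, the TATA box in 9.38% against 13.6% and the YY1 motif in 0% against 1.4%. The median GC content was 57.8% against 52.7%, with Med16 lowest at 39.3% and Med13l highest at 84.7%. The ETS promoters are those of Med4, Med6, Med10, Med14, Med15 (2), Med17, Med18 and Med19. By main probe set, Med4, Med14, Med17 and Med18 were called lower in at least 1 age comparison and the others in none. Second probe sets of Med14 and Med19 were called higher and that of Med15 lower. Whether the motif has a part in the age differences was not tested. A match describes letters only.

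In no comparison of Plk3-KO with WT was a Mediator probe set called. The count was 0 of 53 at P0, 0 of 49 at P7, 0 of 49 in the adult and 0 of 54 for the mean over the ages, and 0% of all probe sets passed in each. At an unadjusted p under 0.05, limma gave 1 member at P0, 0 at P7, 4 in the adult (3 higher, 1 lower) and 1 for the mean. The methods' t-test gave 3 members at P0, 0 at P7 and 3 in the adult at the same unadjusted threshold and 0 after Benjamini-Hochberg adjustment. The shares over all probe sets in this t-test are not given, so its counts are no result about Mediator. No member's genotype difference was shown to change with age (F test in limma, 0 of 54, smallest adjusted p = 1, 0 with an unadjusted p under 0.05). Apart from the dim Med8 probe set, the tested differences ranged from −0.43 to 0.53 at P0, −0.30 to 0.87 at P7 and −0.50 to 0.70 in the adult.

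In the adult the kinase module leaned upward and the tail downward in Plk3-KO retinas, without any call. Of the 12 tested kinase probe sets 10 were above 0, with a median of 0.40, and of the 12 tail probe sets 9 were below 0, with a median of −0.18, against −0.03 over all probe sets. At P7 the medians were 0.07 and −0.08 and at P0 0.00 and 0.03. The 12 kinase probe sets belong to 7 genes and were read on the same arrays, so they are not independent. The 2 below 0 were both of Ccnc, 1428570_at (−0.23) and 1417861_at (−0.10). Cdk19 1434997_at read 9.6, 9.5 and 9.4 in WT and 10, 9.9 and 9.9 in Plk3-KO adults, and 1455031_at read 11.5, 11.6 and 11.8 against 12.3, 12.3 and 11.9. The groups did not overlap on either, yet the differences of 0.43 (unadjusted p = 0.0318) and 0.53 did not pass (adjusted p = 0.977 for each). At P7 and P0 the genotypes overlapped on both. The list of 6 lens genes was uneven at this age, at 8.8 to 11 per array in WT and 6.2 to 9.3 in Plk3-KO adults. These ranges overlap, and 5 and 3 of its genes were above 7. Neither a genotype difference of this list nor its part in the differences above was tested. The tail median was −0.03 without adult Plk3-KO array 3, whereas the kinase median was 0.41.

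Without the 4 arrays, which leaves 2 adult arrays a genotype, 3 kinase module probe sets were called higher in adult Plk3-KO retinas. They were Med13l 1434603_at (0.90, SE 0.15, adjusted p = 0.0146), Med13 1453160_at (1.05, adjusted p = 0.0189) and Cdk19 1455031_at (0.75, adjusted p = 0.0196), 3 of 46 members tested against 1.67% of all probe sets. Med13 1453160_at read 10, 10.2 and 11.3 in WT and 11.1, 11.2 and 10.8 in Plk3-KO adults, so that adult WT array 3, its highest, decides whether the groups overlap. With arrays weighted by their fit, 10 of 49 members were called in the adult against 6.91% of all. Among them were 5 kinase module probe sets, of Cdk19, Med13 and Med13l, all higher.

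**Figure D4:**
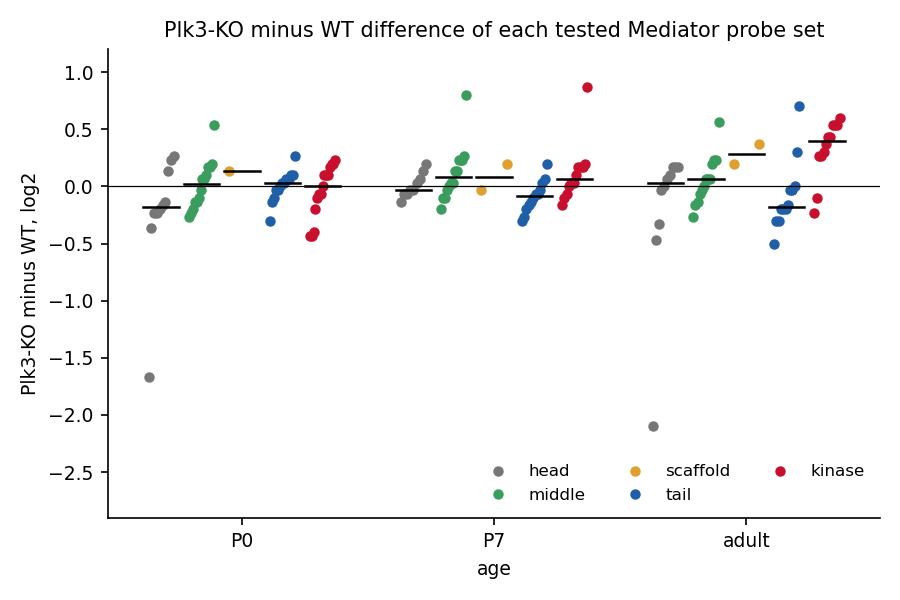
Plk3-KO minus WT difference on the log2 scale of each Mediator probe set tested at P0, P7 and in the adult, by module, with the median of each module as a black line. Most points lie within 0.5 of 0. The dim Med8 probe set lies at −1.67 at P0 and −2.10 in the adult, and the kinase module has its median at 0.40 in the adult.

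By the smallest p at each age, the dim Med8 probe set led in the adult and at P0. It was followed in the adult by Cdk19 1434997_at and Med1 1421907_at (0.57, unadjusted p = 0.0332), where WT arrays read 9.0, 8.9 and 9.3 and Plk3-KO arrays 9.6, 9.3 and 10. At P7 the smallest p values were those of Med13 1436904_at (0.87, unadjusted p = 0.0963, with P7 WT array 3 at 5.9 against 7.7 or more on the others), Cdk8 (0.20, unadjusted p = 0.218) and Med1 1421906_at (0.80, unadjusted p = 0.23). At P0 Med20 1416826_a_at followed, at 10.8, 11 and 10.9 in WT and 10.5, 10.6 and 10.5 in Plk3-KO retinas (−0.37, unadjusted p = 0.176), then Med22 (0.27, unadjusted p = 0.332). Over the ages Med13l 1434603_at (0.29, unadjusted p = 0.0836) and Med28 1448374_at (−0.23, unadjusted p = 0.122) came next. Among the tested probe sets, groups did not overlap in 3 members at P0 (5.66% against 3.49% of all), 0 at P7 (against 1.92%) and 5 in the adult (10.2% against 5.48%). The P0 and adult counts hold the dim Med8 probe set, which was picked from these data and passed the filter only through WT groups. At P7 its groups did not overlap either, but the filter left it out. The 5 in the adult were both Cdk19 probe sets, higher, and the dim Med8 probe set, Med17 1425473_at and Med23 1452064_at, lower. Those at P0 were the dim Med8 probe set and Med20 1416826_a_at, lower, and Med1 1421906_at, higher.

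Med8 has a bright and a dim probe set, and they did not move together with genotype. The dim one read 6.9, 7.5 and 7.0 in WT and 5.0, 5.1 and 6.3 in Plk3-KO retinas at P0. At P7 it read 7.2, 7.1 and 6.0 against 4.5, 5.2 and 5.1, and in the adult 7.0, 6.8 and 7.3 against 4.6, 4.2 and 6.0. At each age every Plk3-KO array lay below every WT array. WT arrays thus sat about the minimum of 7 and Plk3-KO arrays below it, so the size of the difference is not firm. It was −1.67 at P0 (SE 0.54, limma unadjusted p = 0.00679, adjusted p = 1), −1.83 at P7, where both means were under 7 and the filter left it out (with no filter unadjusted p = 0.00281, adjusted p = 1), and −2.10 in the adult (unadjusted p = 0.00123, adjusted p = 0.977). The mean over the ages was −1.87 (SE 0.31, limma adjusted p = 0.202). This probe set was singled out by earlier results of these data and passed the filter only through WT groups, so these values are a description.

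The limma call for the dim Med8 probe set depended on the arrays, and its values here too are a description. The probe set was picked from these data and passed the filter only through WT groups. The adjusted p-values below therefore cannot serve as a test of a genotype effect. Without adult Plk3-KO array 3, at 6.0 the highest Plk3-KO value of its age, the mean was −2.04 (adjusted p = 0.0172), and without the 4 arrays it was −2.17 (adjusted p = 0.0187), 1 of 54 members called against 0.0633% of all probe sets. With weighted arrays it was −2.32 (adjusted p = 3.91e-05), again the only member called, against 0.327% of all. Under quantile normalization it was −1.91 (adjusted p = 0.0521) and with centred arrays −1.87 (adjusted p = 0.14).

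The bright Med8 probe set differed by 0.13 at P0, −0.03 at P7 and 0.17 in the adult, on arrays that overlapped at each age. Its mean over the ages was 0.09 (SE 0.09, limma adjusted p = 1, exact p = 0.302). The difference between the 2 probe sets' genotype differences was −1.80 at P0, −1.80 at P7 and −2.27 in the adult. Over the ages it was −1.96, and between −2.12 and −1.86 when any 1 array was left out, and it restates the difference on the dim probe set, whose size is not firm. With age the pair behaved otherwise. On the dim probe set the differences were −0.45 (adjusted p = 0.379), 0.13 (adjusted p = 0.805) and −0.32 (adjusted p = 0.478), none of them passing, beside the fall on the bright one. The difference between the 2 by age was 0.00, 0.73 (exact p = 0.08) and 0.73 (exact p = 0.06).

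Med8 lies on chromosome 4, as do Plk3 and the members Ccnc and Med18, and 19 protein-coding genes stand between Med8 and Plk3 in the gene order of GRCm38.p6. Ccnc 1428570_at differed by −0.10 at P0, 0.03 at P7 and −0.23 in the adult between the genotypes, and Med18 by −0.20, 0.07 and −0.47, and neither passed. With weighted arrays Med18 was called in the adult at −1.02 (adjusted p = 0.022). Whether the shared chromosome has a part in the Med8 difference was not tested.

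**Figure D5:**
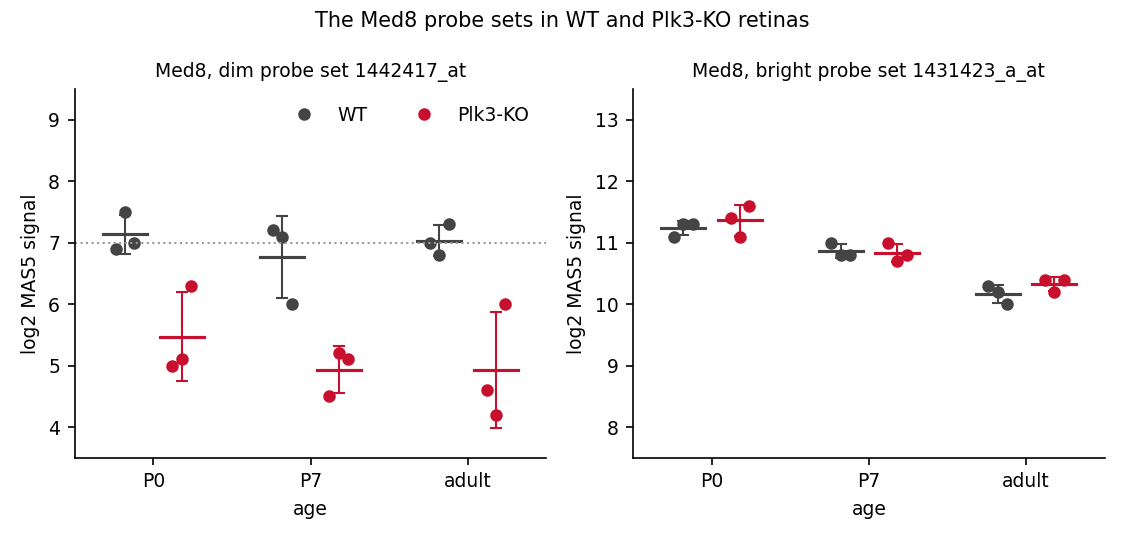
Log2 MAS5 signal of the 2 Med8 probe sets by age in WT (grey) and Plk3-KO (red) retinas, with axes of equal span; points are arrays, lines are means of 3 arrays, bars are SD and the dotted line marks the minimum of 7. On the dim probe set (left) Plk3-KO arrays lie below WT arrays at each age, and on the bright one (right) the genotypes overlap while the signal falls from P0 to the adult.

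Other genes of the transcription machinery were counted in the same way. From P0 to the adult, of 14 tested probe sets for 11 RNA polymerase II subunits 1 was higher (7.14%) and 3 lower (21.4%, median 0.05). Of 28 for 17 general transcription factors 4 were higher (14.3%) and 10 lower (35.7%, median −0.18). The Mediator members had 8 higher (14.8%) and 19 lower (35.2%) of 54 and a median of −0.30. Of all probe sets tested 26.1% were higher and 36.2% lower, with a median of −0.22. The Mediator shares were thus near those of the general transcription factors. None of these probe sets was called between genotypes.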

How the data were processed

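Retinal RNA of 18 arrays, 3 for each age and genotype, was analysed from a deposited table of log2 values. The authors had used the affy package in R, with background adjustment and normalization by MAS5, on Affymetrix mouse expression arrays and gave 1 decimal. MAS5 scales each array as a whole, so differences between array medians remain in the values. The number of arrays limits the precision. The paper lists 3 Plk3-KO and 3 WT littermate retinas at each age and speaks of biological replicates. No label names the animal or litter of an array, so p-values measure only the spread between these arrays. Labels set each array's age, genotype and replicate. The 64 control probe sets were left out.

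A linear model with 1 mean for each of 6 groups was fitted with limma 3.58.1 in R 4.3.3 (12 residual and 4.071 prior degrees of freedom, variances moderated along the mean) to 25085 probe sets with a mean above 7 in any group; genotype at an age was tested where WT or Plk3-KO exceeded 7 at that age. In each contrast p-values were adjusted over all probe sets tested (Benjamini-Hochberg, threshold 0.05). The script was tested on simulated data. Single values were tested by exact two-sided permutation within strata. The methods' t-test used a pooled variance. Age comparisons share arrays.

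The member rule, the gene lists and the tests were chosen with earlier results of these data known. Genes are named by rule: all Med8 probe sets, the kinase module, the 4 called genes with the largest difference each way by age (main probe set), the 3 smallest p per genotype comparison, genes called both ways and the 3 highest means. Others named were chosen after their values were seen. Lists of red blood cell genes (2 of 4 found, array means 3.5 to 6.4), microglia (7.0 to 9.2) and vascular genes (5.3 to 9.3) were checked too. Alternatives were other scalings, filters, weights, array sets, a replicate block and single genotypes. The result of 1 further gene list is not reported here.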

Additional observations from a re-analysis of the deposited data

How the results depend on the processing

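Of 645 recomputed values of the 21 named age differences, 546 kept their direction and their side of the threshold, 99 kept the direction but no longer passed, and 0 reversed. The P0 to adult differences of Med8, Med1, Med25, Med23 and Med16 passed in every alternative run. Values with 1 decimal and 3 arrays a group limit what can be told of small differences.

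With no label that pairs replicate numbers, and with correlations between same-numbered arrays from −0.61 to 0.54, the numbers were not taken to pair the arrays. A replicate block left 2 members higher and 6 lower from P0 to P7, 4 and 10 from P7 to the adult, 7 and 19 from P0 to the adult, and 0 in each genotype comparison.

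For Plk3-KO minus WT in the adult, the 0 calls became 10 with weighted arrays (6.91% of all probe sets) and 3 without the 4 arrays (1.67% of all). By the unadjusted t-test they became 3 in the adult and 3 at P0, with the shares over all probe sets not given. For the mean over the ages they became 1 with weighted arrays (0.327% of all), 1 without the 4 arrays (0.0633% of all) and 0 to 1 when 1 array was left out. The cause of these changes, as of those below, was not tested. The age counts below stand without the shares over all probe sets in the same runs. They show only how the calls moved and are no result about Mediator. Members higher from P0 to P7 (4) numbered 0 with no filter, 1 without a trend, 11 with weighted arrays, 2 on probe sets without _s, _x or _a, 0 in WT alone, 0 in Plk3-KO alone and 0 to 5 with 1 array left out. Those lower (8) numbered 0 with centred arrays, 4 with no filter, 13 with weighted arrays, 2 in WT alone, 1 in Plk3-KO alone and 3 to 10. From P7 to the adult, higher calls (4) numbered 9 with weighted arrays, 10 without the 4 arrays and 4 to 8, and lower calls (11) numbered 2 with centred arrays, 24 with weighted arrays, 7 with only the groups compared, 20 without the 4 arrays, 7 in WT alone, 1 in Plk3-KO alone and 8 to 17. From P0 to the adult, higher calls (8) numbered 13 with weighted arrays, 16 without the 4 arrays, 5 in WT alone, 5 in Plk3-KO alone and 7 to 10, and lower calls (19) numbered 10 in Plk3-KO alone and 16 to 20. For the dim Med8 probe set, a description as above, the mean over the ages was −2.32 with weighted arrays and −2.17 without the 4 arrays. With 1 array left out it ran from −2.04 to −1.74. The difference of the dim Med8 probe set from the bright one ran from −2.12 to −1.86.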
